A study of Mus musculus with 6 samples.

Results

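The nuclear-encoded genes of the mitochondrial respiratory chain were examined in mammary epithelial cells of *fat-1* and wildtype (WT) mice. Members were the rows of the deposited count table whose gene symbol begins with the letters of a subunit of complexes I to V (*Nduf*, *Sdh*, *Uqcr*, *Cox4* to *Cox8* and *Atp5*), and 13 rows with a symbol marked as a pseudogene (-ps) were left out. This gave 88 genes of 61880 rows, namely 40 named for complex I, 4 for complex II, 8 for complex III, 19 for complex IV and 17 for complex V. The rows of the table form 53912 loci, since the assembly of transcripts from the reads can give a gene more than 1 row, so each member was also read as the sum of all rows of its locus. Of the 88 members, 86 had enough counts to be tested as locus sums and 85 as rows. The members that failed were *Cox7b2* and *Cox8c*, both with 0 counts in every sample, and, by row only, *Ndufa13*.

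RNA was sequenced from 3 *fat-1* and 3 WT samples, each made from the inguinal mammary glands of 2 to 3 pooled female mice of the FVB/NJ strain aged 6 to 8 weeks. The *fat-1* mice carry a roundworm gene for an *n*-3 desaturase, which converts polyunsaturated fatty acids (PUFA) of the *n*-6 class into the *n*-3 class throughout the body, and the WT mice lack it. Both genotypes were kept for life on the diet of their parents, with 10% of its weight and 22% of its energy as fat from safflower oil, a source of *n*-6 PUFA. The cells came from glands digested with enzymes and were not sorted. Pooling means that a sample stands for several mice, and the labels do not say which mice were littermates. The RNA of the transgene was not analysed here.

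The respiratory chain sits in the inner mitochondrial membrane. Complex I (NADH dehydrogenase) and complex II (succinate dehydrogenase) pass electrons to ubiquinone, complex III passes them to cytochrome c, and complex IV (cytochrome c oxidase) passes them to oxygen, while complex V (ATP synthase) uses the proton gradient that results to make ATP. Apart from complex II, each complex joins subunits encoded in the nucleus, which are the subject here, with subunits encoded in the mitochondrial genome. Several subunits of complex IV exist as a common form and a form known from heart, skeletal muscle, brown fat, lung or testis.

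No member differed between the genotypes beyond the spread of the samples. In the quasi-likelihood fit of edgeR, after Benjamini–Hochberg adjustment, 0 of 86 locus sums passed an adjusted threshold of 0.05, beside 0% of all 24061 loci tested, and 0 of 86 passed 0.05 without adjustment, beside 1.14% of all loci. Of the rows with the gene symbol, 0 of 85 passed the adjusted threshold, beside 0% of 30683 rows, and 0 passed the unadjusted one, beside 2.21% of rows. DESeq2's Wald test and edgeR's exact test also called 0 members after adjustment in either table, and at the unadjusted threshold the only member they gave was the row of *Ndufs1*, by DESeq2. The *p*-values measure the spread between these pooled samples. The samples are bulk RNA, so a lower value from fewer cells of a type and one from less RNA per cell cannot be told apart.

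The members were measured tightly enough to bound most differences. For 76 of 86 locus sums (88.4%), the 95% interval of the fold change lay within 1.5-fold in either direction, which held for 37.3% of all loci tested. Above a mean of 10 CPM (counts scaled to the normalized total of the sample), it held for 73 of 75 members (97.3%), beside 71.4% of 9596 loci. The median SD of the log2 level within a genotype was 0.0848 for these 75 members and 0.156 for all loci at that level. The exceptions among the 75 were *Ndufa4* and *Ndufa12*, and the other 8 members with wider intervals were *Ndufa4l2*, *Ndufa11b*, *Ndufs6b*, *Cox4i2*, *Cox6b2*, *Cox6c2*, *Cox7a1* and *Cox8b*, all of them low in these cells.

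**Figure D1:**
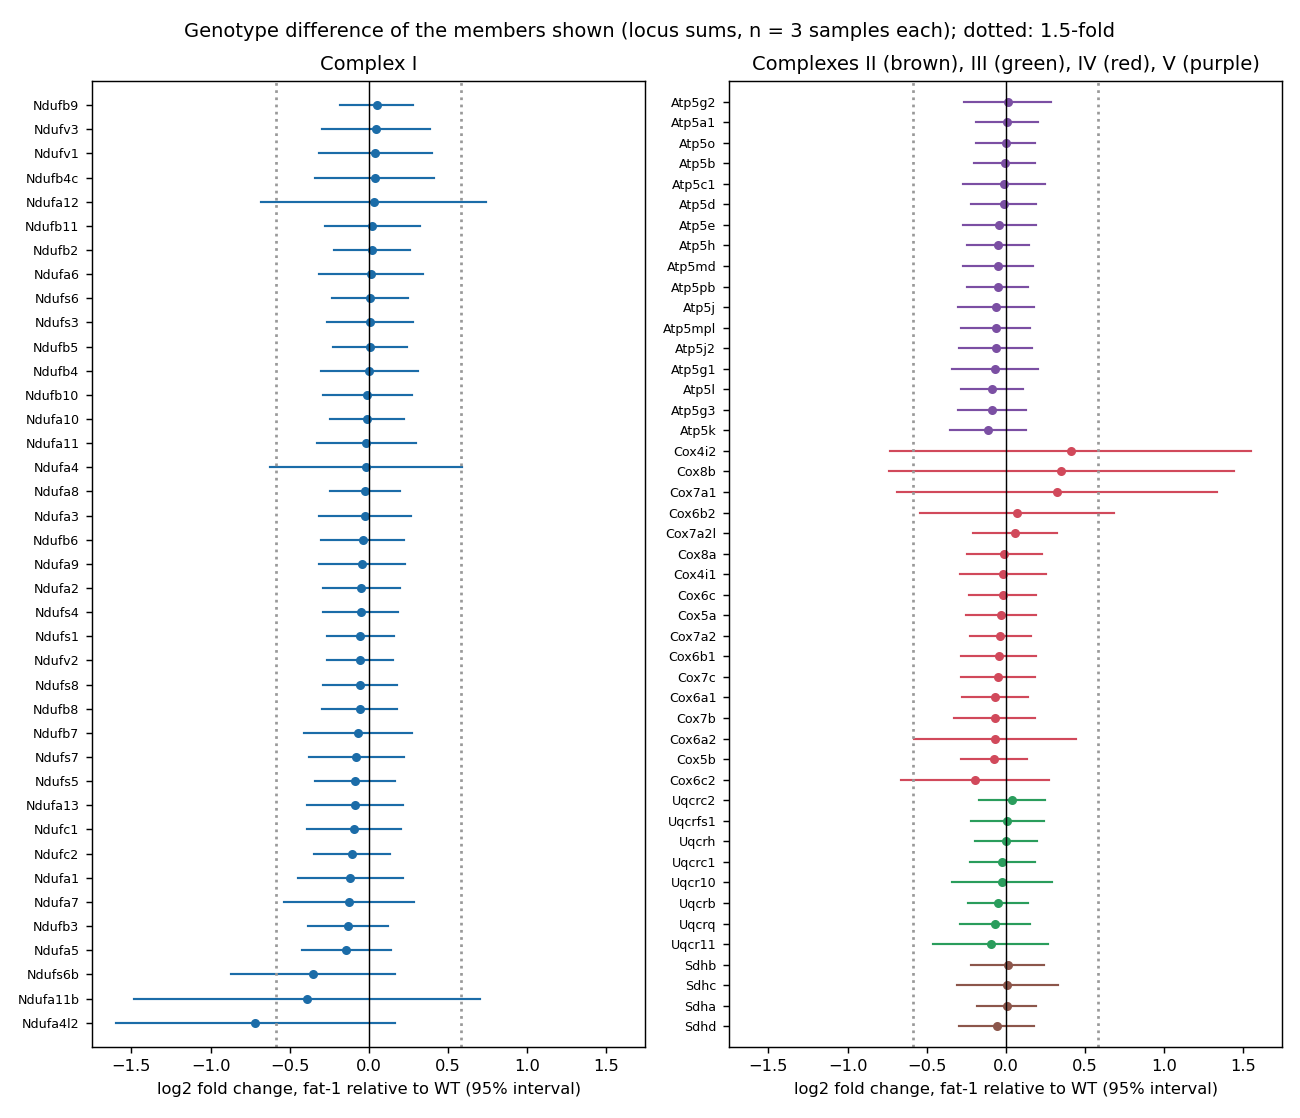
Log2 fold change of 85 of the 86 members tested, *fat-1* relative to WT, with its 95% interval from edgeR's quasi-likelihood fit of locus sums (3 samples of each genotype). Dotted lines mark 1.5-fold, which most intervals do not reach, and the points run from −0.72 (*Ndufa4l2*) to 0.41 (*Cox4i2*).

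Some promoters of these genes share short motifs, and others, of common and tissue-restricted forms alike, lack them. RefSeq start sites of mouse build GRCm38.p6 were given for 68 of the 88 members, with 73 promoters between them, each read from 250 bases before to 50 bases after the start. The letters CGCATGCG (the core of the site of nuclear respiratory factor 1, NRF-1), CCGGAAG (the core of ETS factors such as GABP, also called NRF-2) and AAGATGGC (the core of the YY1 site) were searched on both strands. The promoters of 3 members are printed 5′ to 3′ in the direction of the gene, up to the base before the start, with the matches in capitals. The first 2 are of genes for subunits that most cells use, *Atp5j* (coupling factor 6 of ATP synthase; chr16:84834977-84835226, minus strand) and *Cox6a1* (the common form of subunit VIa; chr5:115348959-115349208, minus strand), and the last is of *Cox8b* (the heart and muscle form of subunit VIII; chr7:140900447-140900696, minus strand).
Atp5j: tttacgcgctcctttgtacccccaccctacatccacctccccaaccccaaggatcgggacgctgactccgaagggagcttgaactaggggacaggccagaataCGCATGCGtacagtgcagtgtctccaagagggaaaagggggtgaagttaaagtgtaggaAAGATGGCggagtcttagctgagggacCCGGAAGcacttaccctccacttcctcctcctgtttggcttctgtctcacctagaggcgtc
Cox6a1: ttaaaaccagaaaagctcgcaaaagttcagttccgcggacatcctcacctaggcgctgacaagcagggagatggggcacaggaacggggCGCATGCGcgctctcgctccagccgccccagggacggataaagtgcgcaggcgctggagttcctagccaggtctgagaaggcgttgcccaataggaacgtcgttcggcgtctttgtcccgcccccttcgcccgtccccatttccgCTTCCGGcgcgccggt
Cox8b: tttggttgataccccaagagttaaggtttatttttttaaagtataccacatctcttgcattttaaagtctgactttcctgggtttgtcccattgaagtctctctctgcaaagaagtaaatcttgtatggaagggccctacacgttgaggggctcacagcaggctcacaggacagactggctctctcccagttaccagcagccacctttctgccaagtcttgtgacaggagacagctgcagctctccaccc
The *Atp5j* promoter held the NRF-1 letters from position −147, the YY1 letters from −88 and the ETS letters from −61, where −1 is the base before the start. No other member promoter held all 3 motifs. A second *Atp5j* start in the table, upstream of this one, had none of them. The *Cox6a1* promoter held the NRF-1 letters from −161 and the ETS letters, on the opposite strand, from −16. *Cox8b* had none of the 3 motifs and 2 CpG dinucleotides in its 300 bases, beside 32 for *Cox6a1* and 18 for *Atp5j*.

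Across the members, 30 of 73 promoters (41.1%) held at least 1 of the motifs, beside 12.6% of all 32851 promoters of the same length. The NRF-1 letters were in 9 (12.3%, beside 1.87% of all promoters), the ETS letters in 17 (23.3%, beside 8.86%) and the YY1 letters in 10 (13.7%, beside 2.75%). Unlike the YY1 match of *Atp5j*, most of the YY1 matches began after the start, at positions 22 to 38, counting the first transcribed base as 0. The member promoters had a median of 57.3% G and C and 19 CpG, beside 52.7% and 7 for all promoters. Of the tissue-restricted forms, 4 had a promoter in the table (*Cox6b2*, *Cox7a1*, *Cox7b2* and *Cox8b*), and 0 of these held a motif, with a median of 8.5 CpG. Of the 69 promoters of the other members, 30 (43.5%) held a motif, with a median of 19 CpG. The promoters of the core subunits *Atp5b*, *Cox5a* and *Sdha* held none either, so the lack is not particular to the tissue-restricted forms. A match of letters is a description and does not show that a factor binds there.

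Levels were compared between genes per kilobase of exon (GENCODE vM21 models of GRCm38), for members whose locus held at most 1% of counts in rows of another gene's symbol. The median level ran from 25.5 CPM per kilobase for 33 complex I genes to 39.9 for the 4 complex II genes, 46.8 for 15 complex IV genes, 57.2 for 7 complex III genes and 67.4 for 16 complex V genes. The complex IV genes include tissue-restricted forms, which lower their median, so the order of the medians depends on the forms counted. Of the 15 complex IV genes 10 reached 10 CPM per kilobase, beside 7 of 7 in complex III and 15 of 16 in complex V. The upper quartile was 98.1 CPM per kilobase for complex IV, 70.7 for complex III and 94.0 for complex V. Complex V held the highest single level, 306 CPM per kilobase for *Atp5b*, which encodes the catalytic beta subunit (chr10:128083273-128090391). *Cox4i1*, the common form of subunit IV (chr8:120668222-120674207), followed with 197 CPM per kilobase. In complex I the range ran from 1.17 for *Ndufa4l2* to 132 for *Ndufa4*, in complex II from 17.5 for *Sdhc* to 40.4 for *Sdhd*, and in complex III from 24.9 for *Uqcrq* to 130 for *Uqcrh*, in the same unit. The lowest tested level was that of *Cox7a1*, at 0.201 CPM per kilobase. *Atp5g1* was the lowest of complex V at 4.52, but its annotated exons span 4912 bases, so its level per length depends on which transcript is made.

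**Figure D2:**
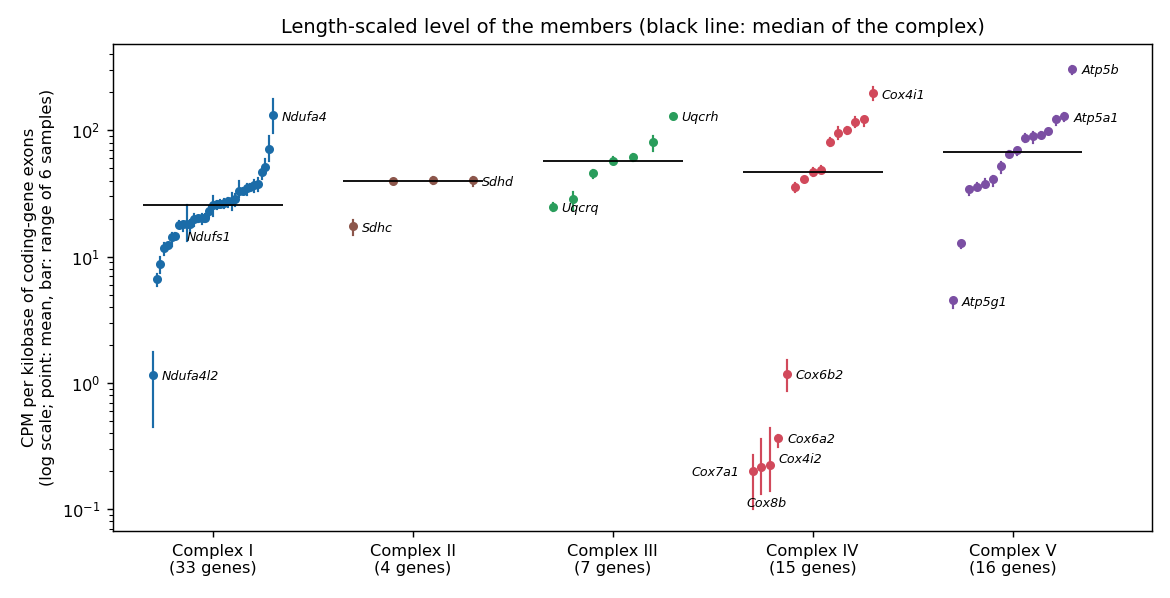
Level of each member per kilobase of exon on a log scale, by complex (point: mean, bar: lowest to highest of 6 samples, black line: median of the complex). The tissue-restricted forms of complex IV and *Ndufa4l2* lie between 0.201 and 1.19 CPM per kilobase, apart from the other members.

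In complex I, the subunits that carry the flavin and the iron-sulfur clusters overlapped between the genotypes. Values are listed in the order of samples 1 to 3 of each genotype. *Ndufs1*, the largest of them (chr1:63143596-63176833), had 48.5, 50.3 and 48.5 CPM in *fat-1* and 48.0, 51.0 and 53.8 CPM in WT. The genotypes overlapped (log2 fold change −0.05, standard error 0.09, 95% interval −0.26 to 0.16). *Ndufv1*, which holds the flavin and the NADH site, had 53.8, 37.2 and 46.5 CPM in *fat-1* and 46.9, 43.4 and 43.4 CPM in WT. The *fat-1* samples thus held both its highest and its lowest value, and the log2 fold change was 0.04 (standard error 0.15). Of the other core subunits, *Ndufs3*, *Ndufs7*, *Ndufs8* and *Ndufv2* had log2 fold changes between −0.08 (*Ndufs7*) and 0.01 (*Ndufs3*). The sum of 36 complex I loci was 908 ± 68.6 CPM (SD, *n* = 3) in *fat-1* and 929 ± 38.0 CPM in WT.

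*Ndufa4l2* is a relative of *Ndufa4* that is known as a target of hypoxia-inducible factor. Its locus sum had the smallest unadjusted *p*-value of all members in edgeR's quasi-likelihood fit, 0.0941. Among rows, the smallest in the same fit was 0.0667, for *Ndufs1*. The locus sum of *Ndufa4l2* had 0.417, 1.06 and 0.991 CPM in *fat-1* and 1.18, 1.25 and 1.63 CPM in WT. All *fat-1* values lay below all WT values, with *fat-1* sample 1 (88 counts) far below the rest. The log2 fold change was −0.72 (standard error 0.37, 95% interval −1.60 to 0.16; adjusted *p* = 1 in edgeR's quasi-likelihood fit, Benjamini–Hochberg), and −0.39 without *fat-1* sample 1. The genotypes did not overlap for 5 of 86 members in all, each lower in *fat-1*, beside 4.15% of all loci in both directions. Of all 24061 loci, 998 did not overlap, and 568 of these were lower in *fat-1*. Among the 5 members, *Atp5l* (subunit g of ATP synthase) had 48.6, 47.9 and 49.8 CPM in *fat-1* and 50.9, 51.5 and 53.1 CPM in WT, a narrow gap (log2 fold change −0.09, standard error 0.08). *Atp5k* (subunit e) had 13.5, 13.6 and 13.4 CPM against 13.8, 14.6 and 15.3 CPM. *Ndufs5* and *Ndufs6b* had log2 fold changes of −0.09 and −0.35, the second on 44 to 64 counts per sample.

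The most variable members above 10 CPM were *Ndufa12* and *Ndufa4*. *Ndufa4*, named for complex I and since known as a subunit of complex IV (chr6:11900292-11907497), had 111, 59.2 and 75.7 CPM in *fat-1* and 97.1, 83.9 and 68.1 CPM in WT. Its highest value was in *fat-1* sample 1 and its lowest in *fat-1* sample 2, and the log2 fold change of −0.02 had an interval from −0.63 to 0.59. *Ndufa12*, an accessory subunit of complex I, had 28.4, 14.9 and 17.8 CPM against 26.0, 17.0 and 16.8 CPM, with the samples numbered 1 highest in both genotypes. Summed markers of hormone-sensing luminal cells stood at 2762, 1069 and 1577 CPM in *fat-1* and 2338, 1636 and 1195 CPM in WT, the same order of samples as *Ndufa4*. The summed luminal progenitor markers had this order too, at 2410, 659 and 1064 CPM in *fat-1* and 1816, 1321 and 780 CPM in WT. The basal markers, at 939, 494 and 663 CPM against 811, 592 and 498 CPM, had it except that *fat-1* sample 3 and WT sample 2 changed places. Whether the cell types set the level of *Ndufa4* was not tested.

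The 4 genes of complex II, which also serves the citric acid cycle, were close to level. *Sdha*, the flavoprotein subunit, had 118, 109 and 118 CPM in *fat-1* and 112, 116 and 116 CPM in WT. The WT values lay within the range of the *fat-1* values, which *fat-1* sample 2 widened downward, and the log2 fold change was 0.01 (standard error 0.08). *Sdhb* (iron-sulfur subunit), *Sdhc* and *Sdhd* (membrane anchors) had log2 fold changes of 0.01, 0.01 and −0.06, the last with the smallest *p*-value of the complex (0.576). The sum of the 4 loci was 265 ± 19.7 CPM (SD, *n* = 3) in *fat-1* and 266 ± 0.974 CPM in WT.

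In complex III, the core proteins *Uqcrc1* and *Uqcrc2* and the Rieske iron-sulfur protein *Uqcrfs1* had log2 fold changes of −0.02, 0.04 and 0.01. *Uqcrc1* had 99.6, 93.8 and 107 CPM in *fat-1* and 99.9, 101 and 104 CPM in WT. The smallest *p*-value of the complex was 0.480, for *Uqcrq*, a small subunit that binds near ubiquinone, with a log2 fold change of −0.07. *Uqcrb* shares its locus with *Mterf3*, whose row held 14.0% of the counts. The other 7 loci summed to 435 ± 25.1 CPM (SD, *n* = 3) in *fat-1* and 437 ± 13.7 CPM in WT.

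In complex IV, *Cox4i1* had 168, 132 and 150 CPM in *fat-1* and 163, 143 and 150 CPM in WT. The lowest value was in *fat-1* sample 2 and the highest in *fat-1* sample 1 (log2 fold change −0.02, standard error 0.11). *Cox5a* and *Cox5b*, for which no tissue-restricted form is known, had log2 fold changes of −0.03 and −0.08. *Cox7a2l*, a factor that joins complexes III and IV into supercomplexes, had 119, 112 and 105 CPM against 121, 98.2 and 103 CPM (log2 fold change 0.06). The smallest *p*-value of the complex was 0.357, for *Cox6c2*. The sum of 16 loci was 686 ± 37.8 CPM (SD, *n* = 3) in *fat-1* and 696 ± 23.4 CPM in WT.

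Complex V, the enzyme that makes ATP, had the largest sum of the 5 complexes. *Atp5b* had 618, 535 and 604 CPM in *fat-1* and 571, 595 and 597 CPM in WT. *Atp5a1*, the alpha subunit, had 395, 344 and 387 CPM against 371, 361 and 388 CPM. For both, *fat-1* sample 2 was the lowest of all and *fat-1* sample 1 the highest, so the genotypes overlapped, and the log2 fold changes were 0.00 (*Atp5b*, 95% interval −0.20 to 0.19) and 0.01 (*Atp5a1*, −0.19 to 0.21). *Atp5c1*, the gamma subunit of the central stalk, had a log2 fold change of −0.01. The sum of 16 loci was 1738 ± 115 CPM (SD, *n* = 3) in *fat-1* and 1763 ± 31.7 CPM in WT.

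Although no single member was called, more members were fitted lower than higher in *fat-1*. This was so for 60 of 86 (69.8%), beside 49.4% of all loci, but the sizes were small, with a median log2 fold change of −0.04 for the members and 0.00 for all loci. By complex, 28 of 40 members of complex I were fitted lower, 1 of 4 of complex II, 5 of 8 of complex III, 12 of 17 of complex IV and 14 of 17 of complex V. The count moved with single samples. *Fat-1* sample 2 held the lowest value of 54 of 86 members (62.8%), and of 51 of the 75 members above 10 CPM (68.0%), beside 24.8% of all loci at that level. The median log2 deviation of these 75 members from their own means was −0.11 in this sample, and that of all loci was −0.03. Without *fat-1* sample 2, 44 of 86 members were fitted lower and the median was 0.00. Without WT sample 3, which held the highest value of 24 of the 75 members (32.0%, beside 19.7% of all loci at that level), 50 were fitted lower and the median was −0.01. Without WT sample 2, 74 were fitted lower and the median was −0.05. Read as rows, 60 of 85 members were fitted lower with a median of −0.04, and without *fat-1* sample 2 it was 43 of 86 with a median of 0.0021, so that the direction turned.

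The labelled cell type is epithelial, and luminal and basal markers were counted in every sample, but so were those of other cells, with fibroblast markers summing to 1745, 4499 and 6671 CPM in *fat-1* and 3650, 6212 and 5511 CPM in WT. The sums of the epithelial markers were lowest in the sample in which the members were lowest, and nearly as low in WT sample 3. In *fat-1* sample 2, the summed luminal progenitor markers were at their lowest, 659 CPM, beside 2410 and 1064 CPM in the other *fat-1* samples and 780 to 1816 CPM in WT. The hormone-sensing luminal markers (1069 CPM) and the basal markers (494 CPM) were at their lowest there too. In WT sample 3, these sums were 780 CPM (progenitor), 1195 CPM (hormone-sensing) and 498 CPM (basal), and the median log2 deviation of the 75 members above 10 CPM was 0.04. Most of the basal sum was *Tagln*, at 344 CPM in *fat-1* sample 2 and 354 CPM in WT sample 3. Of the other basal markers, *Krt5*, *Myh11*, *Oxtr*, *Mylk* and *Cnn1* were lower in WT sample 3. *Krt14*, *Acta2*, *Trp63* and *Lgr6* were lower in *fat-1* sample 2, so the basal markers do not set these 2 samples apart. The immune markers stood at 2504 CPM in *fat-1* sample 2, 1130 and 1951 CPM in the other *fat-1* samples, and 1150, 1338 and 2547 CPM in WT. Adipocyte markers summed to 112 to 134 CPM in *fat-1* and 143 to 156 CPM in WT, without overlap, and endothelial markers to 256 to 288 CPM and 275 to 328 CPM, with 8 of 10 fitted lower in *fat-1* and a median log2 fold change of −0.24. Of the adipocyte markers, 5 of 10 were fitted lower and 1, *Fabp4*, passed the unadjusted threshold (log2 fold change −0.31, standard error 0.12, adjusted value 1). *Fabp4* made up most of the adipocyte sum, with 93.6, 106.1 and 83.2 CPM in *fat-1* and 111.5, 125.9 and 112.2 CPM in WT. No other adipocyte marker was without overlap, so the gap between these sums rests on 1 gene. All 10 markers of each of these lists were counted, 0 of them passed the adjusted threshold of the quasi-likelihood fit, and *Fabp4* alone passed without adjustment. The part of cell type makeup in the low values of *fat-1* sample 2, and in the count of members fitted lower, was not tested.

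**Figure D3:**
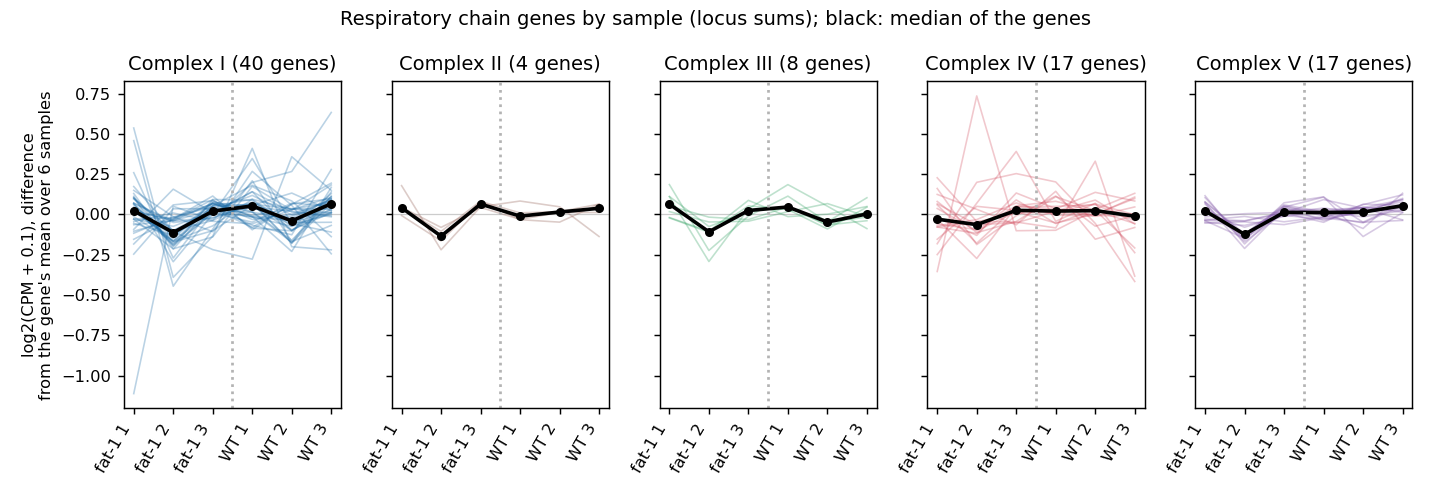
Level of each member tested in each sample, as the log2 difference from its own mean over 6 samples (thin lines: genes, black line: median of the complex). In *fat-1* sample 2 the median lies below 0 in all 5 complexes, and in the other samples it stays close to 0.

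The common forms of complex IV subunits far exceeded the tissue-restricted forms. *Cox6a2*, the heart and muscle form of subunit VIa, had 0.213, 0.261 and 0.255 CPM in *fat-1* and 0.252, 0.265 and 0.248 CPM in WT. *Cox6a1* had 55.0, 53.7 and 59.5 CPM against 60.7, 58.0 and 57.4 CPM. The reads of the common form were 206 to 258 times those of the muscle form in every sample. *Cox8b* had 10 to 27 counts per sample, and the reads of its common form *Cox8a* were 539 to 1326 times as many. *Cox4i2*, the form known from lung and from low oxygen, had 23, 74 and 31 counts in *fat-1* and 32, 39 and 27 in WT, and *Cox4i1* had 383 to 1541 times as many reads. The count of 74 in *fat-1* sample 2 stands apart and gives the low end of that range. *Cox6b2*, the testis form of subunit VIb, was the least rare of them with 0.642 to 1.12 CPM, and *Cox6b1* had 71.2 to 116 times its reads. *Cox7a1*, the heart and muscle form of subunit VIIa, had 11 to 30 counts per sample. The annotated exons of the paired forms differ in length, from 360 bases for *Cox8b* to 788 for *Cox4i2*, so these multiples are of reads and not of molecules.

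*Cox7b2* and *Cox8c*, both known from testis, had 0 counts in all samples, which allows up to 0.0129 to 0.0147 CPM (3 counts, counting error only). Markers of skeletal muscle and brown fat were low, and those of heart, lung and testis were not analysed here. Of 10 skeletal muscle markers 8 were counted above the filter. They summed to 6.57 to 7.12 CPM in *fat-1* and 5.92 to 6.43 CPM in WT, without overlap, and 0 of the 8 passed the unadjusted threshold. The 2 under the filter were muscle myosins. *Myh4* had 0, 6 and 0 counts in *fat-1* and 0, 0 and 6 in WT, and *Myh1* had 0, 0 and 0 in *fat-1* and 8, 7 and 14 in WT. The brown adipocyte markers summed to 8.52 to 10.7 CPM and 10.2 to 13.2 CPM, with *Ucp1*, which uncouples the chain in brown fat, at 0.178 to 0.344 CPM. *Dio2*, a deiodinase that activates thyroid hormone, had 2.47, 2.06 and 3.04 CPM in *fat-1* and 4.57, 6.02 and 3.79 CPM in WT (log2 fold change −0.93, standard error 0.24), and was the only marker of the list past the unadjusted threshold, with an adjusted value of 1. Their part in the counts of *Cox6a2*, *Cox7a1* and *Cox8b* was not tested.

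**Figure D4:**
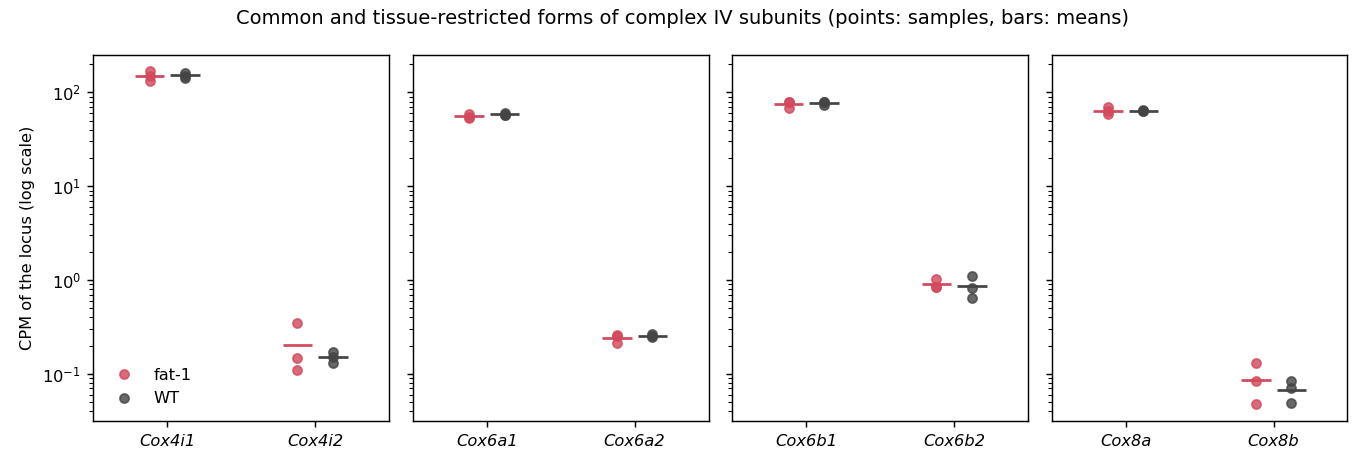
CPM of the common and the tissue-restricted form of 4 complex IV subunits, on a log scale (points: samples, bars: mean of 3). *Cox4i1*, *Cox6a1*, *Cox6b1* and *Cox8a* lie between 53.7 and 168 CPM, and their partners between 0.0474 and 1.12 CPM.

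The balance of the forms did not differ between the genotypes beyond the spread. The log2 ratio of *Cox4i2* to *Cox4i1* was −9.03 ± 0.739 (SD, *n* = 3) in *fat-1* and −9.24 ± 0.177 in WT (two-sided exact permutation *p* = 0.8). For *Cox6a2* to *Cox6a1*, *Cox6b2* to *Cox6b1* and *Cox8b* to *Cox8a*, the differences were 0.01, 0.14 and 0.15, with exact permutation *p*-values of 0.9, 0.6 and 0.5. The 3 genes *Atp5g1*, *Atp5g2* and *Atp5g3* encode the same mature subunit c, which forms the ring of ATP synthase. Of their summed CPM, *Atp5g3* held 49.6% ± 1.45 (SD, *n* = 3) in *fat-1* and 51.0% ± 1.98 in WT, *Atp5g2* 37.9% ± 1.02 and 36.3% ± 2.29, and *Atp5g1* 12.5% ± 0.425 and 12.7% ± 0.413. Their exact permutation *p*-values were 0.4, 0.4 and 0.5, and those of all 7 ratios and shares were 0.84 to 0.9 after adjustment. With 3 against 3 samples the smallest *p*-value possible is 0.1.

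Of the members, 56 had a locus with a single row and 32 shared theirs with other rows, 135 rows in all. In such a locus, the counts of 1 gene can fall in the row with its symbol or in another row. The row of *Atp5a1* held 88.3%, 82.1% and 27.5% of the locus in *fat-1* and 61.6%, 87.0% and 38.1% in WT. Its share thus swung by 60.8 percentage points while its locus sum differed by at most 1.15-fold between samples. *Ndufa12* (a range of 58.3 points) and *Atp5c1* (37.0 points) came next, and 9 of the 32 ranged over more than 20 points.

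In 3 of 32 members, the shares of the genotypes did not overlap, beside 7.8% of 8359 rows with a symbol in loci of more than 1 row. When a sample was left out, it was 3 to 7 members, most without WT sample 2. Fewer samples overlap less by construction, and no share over all rows was taken for these counts, so they are not read further. The *Ndufs1* row held 81.7%, 68.1% and 72.8% of its locus in *fat-1* and 87.7%, 88.3% and 85.4% in WT. *Sdhb* went the same way, with 76.2%, 83.6% and 74.5% against 84.8%, 85.4% and 88.7%. *Ndufb11*, an accessory subunit of complex I, went the other way, mostly through WT sample 1, with 93.4%, 93.1% and 93.5% against 60.2%, 86.9% and 92.6%. The exact permutation *p*-value of each was 0.1 (two-sided), and 1 after adjustment over the 32. As rows, these genes had log2 fold changes of −0.28 (*Ndufs1*, standard error 0.13), −0.13 (*Sdhb*) and 0.26 (*Ndufb11*), while their locus sums had −0.05, 0.01 and 0.02. Like *Sdhb*, *Atp5pb* (subunit b of the stator) and *Uqcrb* changed sign, from −0.05 and −0.05 as sums to 0.18 and 0.13 as rows. The row of *Ndufa13* had 0 counts in *fat-1* and 440, 585 and 0 in WT, but a row without a symbol held 4385 to 5220 counts of that locus in every sample.

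**Figure D5:**
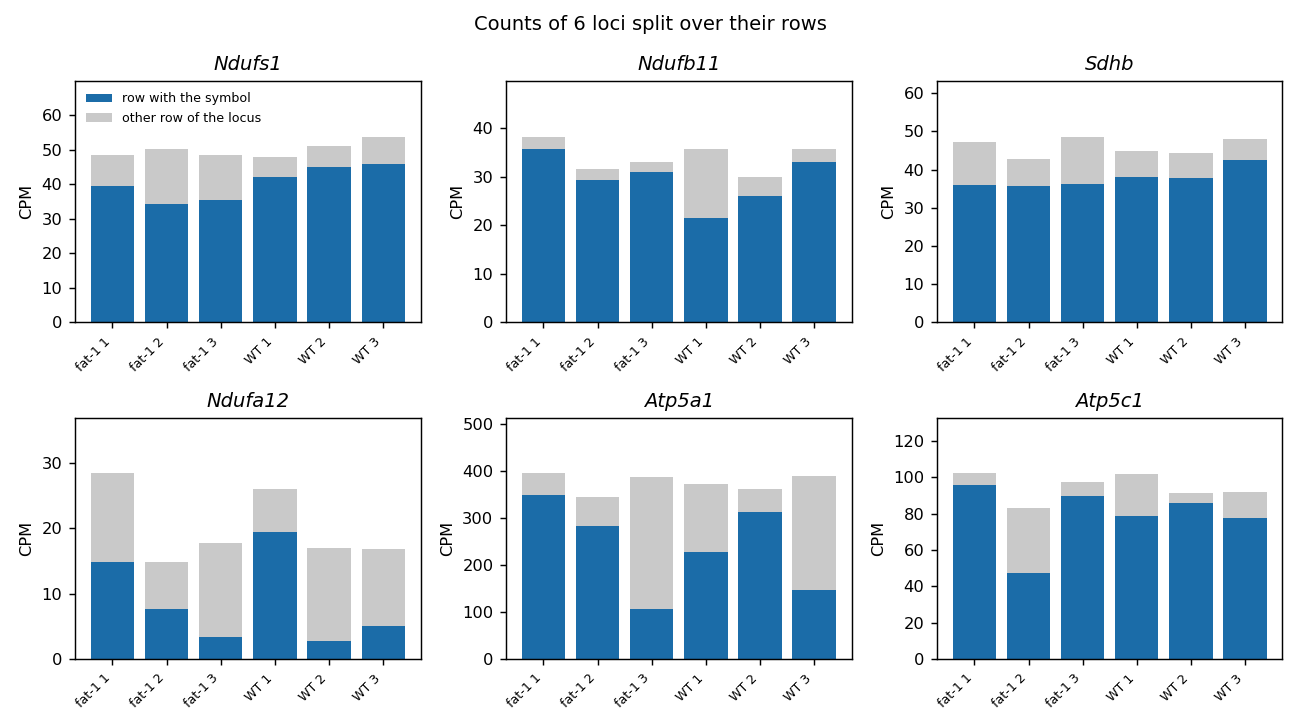
CPM of 6 loci in each sample, split into the row with the gene symbol (blue) and the other row of the locus (grey). The highest bar is 1.91 times the lowest for *Ndufa12*, and at most 1.28 times (*Ndufb11*) for the other loci. The blue part of *Atp5a1* runs from 27.5% to 88.3% of its bar.

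For 7 members, rows with another gene's symbol held more than 1% of the locus, so their sums are not of the member alone. The *Cox7a2* locus was the clearest case, since *Tmem30a* held 51.4% of its counts and the row with the *Cox7a2* symbol 0.0719% to 0.532%. *Ndufb9* was merged with *Rnf139* and *Gm49356* (54.4%), *Ndufb2* with *Adck2* (16.3% with *Gm42420*), *Atp5o* with *Cryzl1* and *Donson* (16.1%), *Uqcrb* with *Mterf3* (14.0%), *Ndufb8* with *Sec31b* and *Gm20538* (6.67%) and *Ndufa13* with *Yjefn3* (4.24%). As locus sums, 0 of the 7 passed the unadjusted threshold.

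Copies of these genes elsewhere in the genome add a further uncertainty. The 4 members without a coding model (*Ndufa11b*, *Ndufb4c*, *Ndufs6b* and *Cox6c2*) are annotated as processed pseudogenes in GENCODE vM21, although the rule on symbols kept them. The other 84 members were compared with annotated pseudogenes, and 22 had at least 1 copy of 95% identity or more over 100 bases or more, 50 copies in all. *Atp5l* had the most, with 9. Rows of such copies held counts equal to 42.4% of those of *Atp5g2*, 27.9% of *Atp5g1*, 27.3% of *Atp5l* and 16.9% of *Cox7c*, while the median over the 22 was 2.02%. How the authors' counting divided reads between a gene and its copies is not given in the sources used here, so the shares of *Atp5g1* and *Atp5g2* are uncertain.

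Genes that build, regulate or feed the chain were also described from lists, with 0 of them called after adjustment and 0 at the unadjusted threshold in the quasi-likelihood fit. Of all loci, 49.4% were fitted lower in *fat-1*. Of 44 assembly factors, which help the complexes form, 25 were fitted lower and 19 higher in *fat-1*, with a median log2 fold change of −0.01. Their sum was lowest in *fat-1* sample 2, at 1315 CPM, beside 1376 to 1449 CPM in the other samples. The smallest *p*-values were those of *Coa6*, a copper chaperone factor of complex IV (log2 fold change −0.21, standard error 0.13), and *Lyrm7*, an assembly factor for the Rieske protein (0.23, standard error 0.17). Of 18 regulators of mitochondrial biogenesis 8 were lower and 10 higher, with *Ppargc1a*, the coactivator PGC-1α, at −0.33 (standard error 0.23) and its relative *Pprc1* at 0.10 (standard error 0.09). The factors whose letters were searched in the promoters had log2 fold changes of 0.07 (*Nrf1*), −0.05 (*Gabpa*) and 0.04 (*Yy1*).

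The citric acid cycle and pyruvate dehydrogenase supply the chain with electrons. Of 17 of their genes, 14 were fitted lower and 3 higher, beside 49.4% of all loci fitted lower, with a median of −0.05. *Suclg1* and *Sucla2* came closest to the threshold with −0.12 and −0.08. The sum of the 17 genes was lowest in *fat-1* sample 2, at 1364 CPM, beside 1427 to 1523 CPM in the other samples. A further 9 genes of the chain or its coupling lie outside the letters of the rule. Of these, 8 were lower and 1 higher, with a median of −0.11, and their sum was lowest in *fat-1* sample 1 (508 CPM). The counts of these lists are not given here with a sample left out. *Ucp2*, an uncoupling protein relative, had 81.3, 98.7 and 105 CPM in *fat-1* and 96.5, 114 and 123 CPM in WT (log2 fold change −0.23, standard error 0.14). *Ndufab1*, the acyl carrier subunit of complex I, had −0.09. The 13 protein-coding genes of the mitochondrial genome lay in 10 loci, of which 2 were lower and 8 higher, with a median of 0.01, and the smallest *p*-values were those of *mt-Nd3* (−0.13) and *mt-Co2* (0.06). Their sum was 26510, 25310 and 22400 CPM in *fat-1* and 27100, 24180 and 22240 CPM in WT, and *fat-1* sample 2 was not the lowest of them.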

How the data were processed

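Whole-transcriptome RNA-Seq of 3 *fat-1* and 3 WT pooled samples was used, each of 2 to 3 mice, although another passage of the methods gives 6 to 8 mice. The authors mapped reads to GRCm38 with HISAT2, assembled transcripts with StringTie and deposited a table of estimated counts, whole numbers that were not normalized. The annotation, the StringTie version, the conversion to counts and the use of strand are not given in the sources used here. Counts summed to between 204539059 and 232148824 per sample, so 1 count is worth 0.00431 to 0.00489 CPM before normalization. The number of samples, not depth, limits precision for all but the rarest members.

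Rows, and sums of the rows of each locus, were tested over the whole table in R 4.3.3 with edgeR 4.0.16 (filterByExpr, TMM, quasi-likelihood test, genotype as the only term, Benjamini–Hochberg adjustment over all features, threshold 0.05). The biological coefficient of variation was 0.302 for locus sums and 0.451 for rows. DESeq2 1.42.0 was an alternative. CPM are relative to TMM-scaled totals. Log2 ratios used CPM + 0.1 and two-sided exact permutation tests. The ratio of *Cox7a1* to *Cox7a2* was left out because the *Cox7a2* locus also holds *Tmem30a*. Near-identical pseudogenes were found with BLAST+ 2.17.0, and motifs and figures came from scripts in Python 3.11.15 with pandas 2.3.3, numpy 2.4.6 and matplotlib 3.10.9. The tests were tried on simulated counts.

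Members named with values were the core subunits, tissue-restricted forms and their partners, the highest and lowest per complex in level and the smallest *p*-value per complex, those whose row and sum differed most, those under the filter, and 2 genes per list. A core subunit is counted in the totals but not reported here by name. *Ndufa12*, *Atp5j*, *Atp5k*, *Atp5l*, *Ndufs5*, *Ndufs6b*, *Ndufa11b*, *Ndufb4c*, *Cox7c*, *Nrf1*, *Gabpa*, *Yy1*, *Ucp1*, *Myh4*, *Myh1* and the merged loci were named after their values were seen. Members, lists and rules were chosen with earlier results of these data known.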

Additional observations from a re-analysis of the deposited data

How the results depend on the processing

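Across other tests, normalizations and filters, a replicate block, sums without rows of other symbols, and each sample left out in turn, 0 members passed the adjusted threshold in either table. In all, 300 recomputed values kept their direction and their side of the threshold or, for counts, stayed within 1.5 times, 9 counts moved further and 1 value was reversed. With a sample left out, members fitted lower as locus sums numbered 44 to 74 instead of 60, and as rows without *fat-1* sample 2 their median turned from −0.04 to 0.0021. The replicate block gave 1 member (*Ndufa4l2*) instead of 0 at the unadjusted threshold for locus sums. For rows, DESeq2's Wald test gave 1 (*Ndufs1*), the fit without a filter on low counts 1 (*Ndufa13*), and leaving out a sample 0 to 1 (*Cox7a2* without *fat-1* sample 3, *Ndufa13* without WT sample 3). Without a sample, members whose row shares did not overlap numbered 3 to 7 (6 without *fat-1* sample 1, 5 without *fat-1* sample 3, 7 without WT sample 2 and 5 without WT sample 3), and fewer samples overlap less by construction. The log2 fold change of *Sdhd* ranged from −0.11 (without *fat-1* sample 3) to 0.0063 (without *fat-1* sample 2). The deviations of samples with equal replicate numbers had correlations of 0.683, −0.132 and 0.0993, and those of *fat-1* sample 2 and WT sample 3 had 0.657. The deviations of 3 samples from their mean depend on each other, so these correlations cannot show whether samples were paired. Over all loci, DESeq2 called 8 and edgeR's exact test 6 after adjustment, and over all rows 93 and 32, where the quasi-likelihood test called 0. The cause was not tested. Depth limits the rarest members most, such as *Cox7a1* and *Cox8b* at 10 to 30 counts per sample.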
